A study of Zea mays with 6 samples.

Results

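Cytokinin receptors and response regulators form the relay through which plant cells read cytokinin, a hormone that promotes cell division in the shoot apex. The receptors are membrane histidine kinases. On binding cytokinin they pass a phosphate through small phosphotransfer proteins to response regulators, of which type-B members are transcription factors that carry the response and type-A members, whose genes respond quickly to cytokinin, mostly restrain it. In maize the type-A gene abph1 is known for its part in phyllotaxy, the arrangement of leaves around the apex.

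The members were the probe sets (each a group of probes for 1 transcript) with a single gene in the array's annotation whose symbol or synonym was hk or RR followed by a number. They numbered 13 of 17621 probe sets and represented 12 genes, with 1452 probe sets carrying a single gene symbol in all. The 3 receptor genes were HK1, hk2 and hk3. The 9 response regulator genes comprised 6 of type A (RR3, which is abph1, RR4 with 2 probe sets, RR5, RR6, RR7 and RR11, also listed as crr1) and 3 of type B (RR8, RR9 and RR10). In the files RR5 carries its own symbol and the others LOC numbers, such as LOC541641 for hk2, LOC541642 for hk3 and LOC541633 for RR7.

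All plants were seedlings of 14 days in the B73 background, from families in which the translocation T5-6b segregates. DpDf (duplicate-deficient) plants carry most of the short arm of chromosome 5 in 3 copies and the tip of the short arm of chromosome 6 in 1 copy. Their wild-type siblings have 2 copies of each. Each of the 3 DpDf and 3 wild-type arrays measured a pool of 8 plants that a marker near the chromosome 5 break had genotyped, so the spread is between pools and 3 arrays a group set the precision. The tissue was a piece of shoot tip enriched for meristem but with leaf primordia. In such bulk tissue, fewer cells of a type and less RNA per cell cannot be told apart.

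Wild type replicate 3 stood apart from the rest. Across probe sets it reached a Spearman correlation of at most 0.932 with any other array, against at least 0.988 among the other 5. Every difference of a member is therefore given with and without it. Relative to wild type replicates 1 and 2 it lay lower by a median of -0.45 (log2) over the 10661 probe sets kept for testing and higher by 0.42 over the others. With all 6 arrays this moved the median difference of all tested probe sets (DpDf minus wild type) to 0.18, and without it that median was 0.02. The difference in signal between 3' and 5' ends is a sign of RNA quality. It was averaged over 5 pairs of maize control probe sets, 2 of them for GAPDH. On the log2 scale it stood at 1.49, 0.89 and 0.86 for DpDf replicates 1 to 3. For wild type replicates 1 to 3 it stood at 0.67, 0.73 and 0.38. Of the labelled tissue's markers, both meristem probe sets (kn1 and lg3) and 8 of 9 leaf primordium probe sets were kept, as were 8 of 9 of green leaf, while the 1 root probe set and 13 of 16 kernel probe sets were not. The summed green leaf signal, most of it from Cab-m7 and rbcS, was higher in every DpDf array (log2 15.88 to 15.94) than in every wild-type array (15.64 to 15.83). All 8 kept green leaf probe sets were higher in DpDf over all 6 arrays, but without wild type replicate 3 only 5 were higher and 3 were lower. The summed meristem and leaf primordium signals overlapped between the genotypes. The part of the green leaf signal in the results below was not tested.

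Keeping a probe set required that 3 or more arrays reach their own 40th percentile, an intensity of 310.8 to 320.0 that served as the bound of background. This kept 7 of the 13 member probe sets, for HK1, hk2, RR5, RR7, RR8, RR9 and RR10. The 6 dim ones were those of hk3, RR3, RR4, RR6 and RR11.

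**Figure D1:**
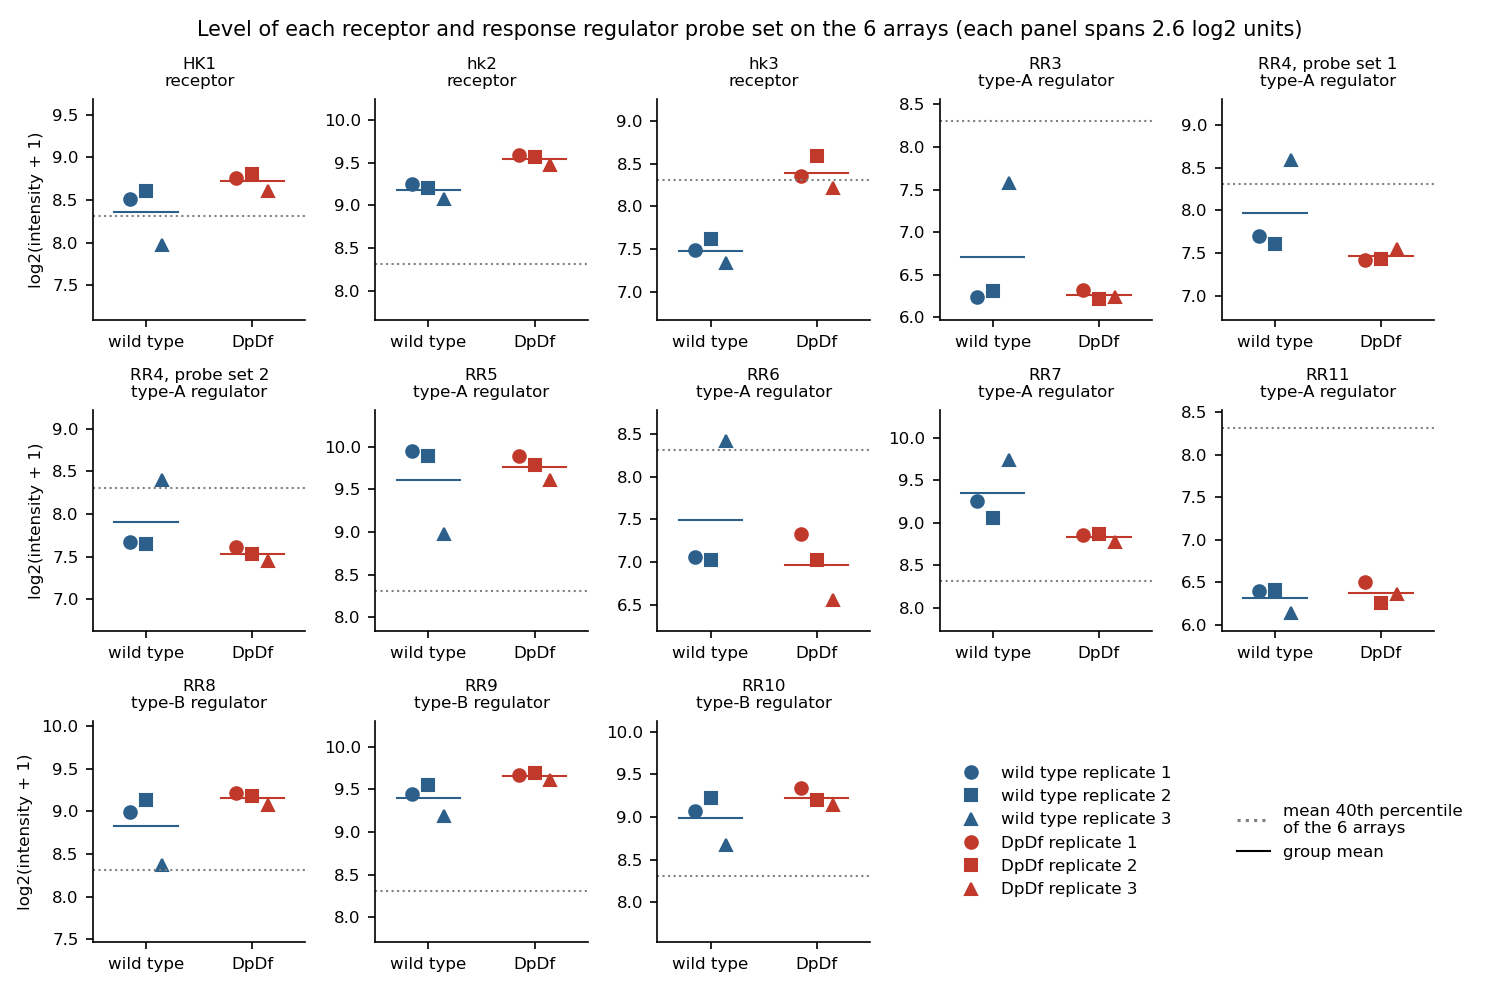
Level of each of the 13 probe sets, as log2(intensity + 1), on the 3 wild-type and 3 DpDf arrays, with group means as lines and the mean 40th percentile as a dotted line. The DpDf arrays lie above the wild-type arrays for hk2, hk3 and RR9 and below them for RR7 and both RR4 probe sets. Of all kept probe sets, which exclude hk3 and RR4, 23.2% lay above and 3.61% below in this way. Wild type replicate 3 departs from the other wild-type arrays in opposite directions in different panels.

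Of the 3 receptors, hk2 and hk3 read higher on every DpDf array than on any wild-type array, and HK1 overlapped between the genotypes. The receptor hk2, on chromosome 3 and hence present in 2 copies in both genotypes, read 770.2, 755.2 and 710.6 (intensity) in DpDf replicates 1 to 3. In wild type replicates 1 to 3 it read 610.0, 588.6 and 537.9. All DpDf arrays lay above all wild-type arrays, and wild type replicate 3, although lowest, lay close to the other wild-type arrays. The log2 difference was 0.37 ± 0.12 with all 6 arrays (SE, limma adjusted p = 0.422) and 0.31 ± 0.07, or 1.24-fold, without wild type replicate 3 (adjusted p = 0.0788). It thus did not pass the threshold of 0.05 in either setting. With arrays weighted by their reliability, it was 0.32 and passed (adjusted p = 0.00971), as did 11.5% of all probe sets tested. Wild type replicate 3 stays in the weighted fit, but the results came close to those without it. The median difference over all probe sets tested was 0.018 with weights and 0.021 without that array. With quantile normalization of all 6 arrays the hk2 difference was 0.21 (adjusted p = 0.477).

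The receptor HK1, on chromosome 5 but far outside the triplicated part, read 433.2, 444.5 and 386.9 in DpDf and 364.7, 387.8 and 250.0 in wild type. The groups overlapped, since DpDf replicate 3 lay just below wild type replicate 2, and wild type replicate 3 was under the background bound. Its log2 difference was 0.36 ± 0.19 with all 6 arrays (SE, limma adjusted p = 0.562). Without wild type replicate 3 it was 0.16 ± 0.09 (adjusted p = 0.334), with a 95% interval of -0.05 to 0.37.

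The receptor hk3 was the only member, of 11 genes that could be placed on a chromosome, to lie on the triplicated arm, taken as the first 40% of chromosome 5. Its signal was dim, at 327.9, 383.5 and 297.2 in DpDf and 179.1, 195.5 and 160.6 in wild type. Every wild-type array was thus below background and 2 of the 3 DpDf arrays were above it, with no overlap between groups. Because of its dimness hk3 was tested only in the fit without a filter, where it rose in DpDf without wild type replicate 3 (limma adjusted p = 0.0242). In that fit 1.88% of 17621 probe sets were called higher in DpDf. With all 6 arrays it was not called (adjusted p = 0.489, when 0.0114% were called higher), nor when replicate 3 of each genotype was dropped and pools were paired by number (adjusted p = 0.14). It rose with weighted arrays (adjusted p = 0.00137), when 6.12% of 17621 probe sets were called higher. With the wild-type arrays set at the background bound, hk3 was 1.06-fold higher in DpDf. DpDf replicate 3 entered this value at its own reading of 297.2, below its bound of 317.3. The value is therefore an approximate bound and not a strict minimum.

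With its wild-type level below background, the size of the difference cannot be given more closely, and hk3 could not be ranked among the genes of the arm or set against the ratio of copies. Among the 46 named genes of the arm that were kept, the median log2 difference was 0.40 without wild type replicate 3 and 0.56 with it. The 3 nearest named genes kept on each side of hk3 (CPN60I, pht1 and gcn5, then 70 K, crd101 and pglcat8) lay at 0.14 to 0.44 without wild type replicate 3. The hk3 probe set is of a kind designed to read several transcripts of 1 gene, and no second hk3 probe set was at hand to compare.

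**Figure D2:**
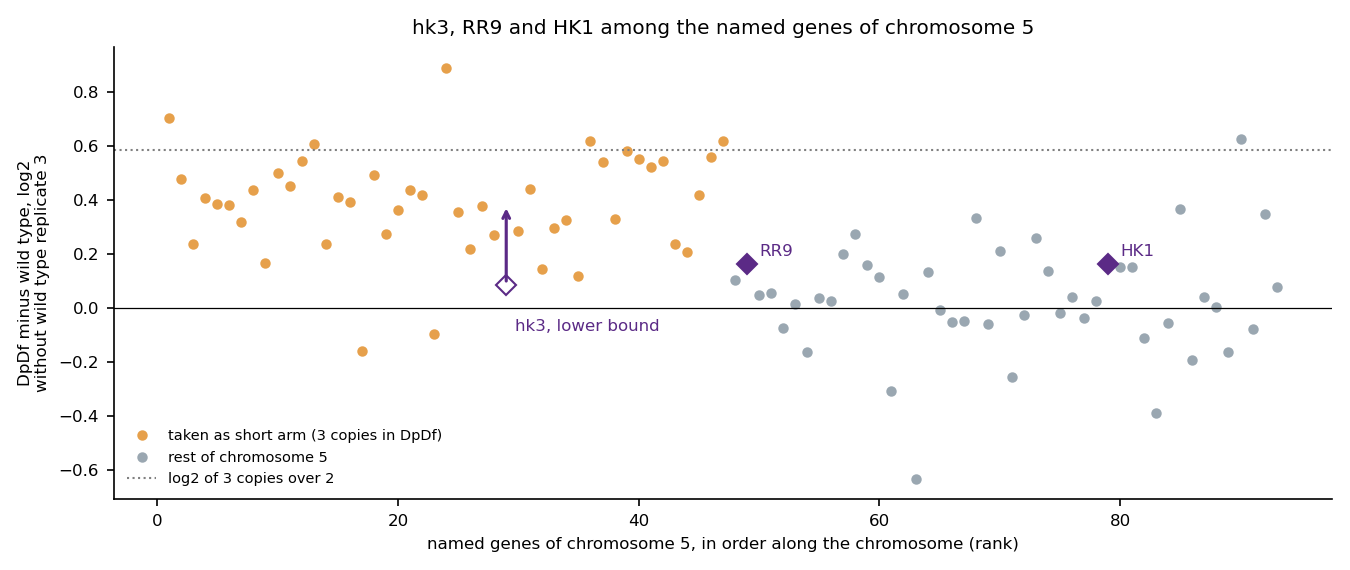
Log2 difference, DpDf minus wild type without wild type replicate 3, for the named genes of chromosome 5 in their order along the chromosome, with HK1 and RR9 as filled diamonds, hk3 as an open diamond at its lower bound with an arrow upwards, and the log2 of 3 copies over 2 as a dotted line. Arm genes (orange) have a median of 0.40 and other genes (grey) one of 0.03. The marker of hk3 (1.06-fold) lies inside the arm, RR9 at 0.16 just past its end and HK1 at 0.16 far outside it. The bound of hk3 is approximate, because DpDf replicate 3 enters it at a reading below background.

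Among type-A regulators, RR7 stood lower in DpDf. It read 462.4, 467.4 and 438.1 in DpDf and 611.3, 528.9 and 853.1 in wild type. No DpDf array reached any wild-type array, and wild type replicate 3 was far the highest. The log2 difference was -0.51 ± 0.19 with all 6 arrays (SE, limma adjusted p = 0.466). Without wild type replicate 3 it was -0.32 ± 0.09, or 0.802 times the wild-type level (adjusted p = 0.117). It passed with weighted arrays at -0.28 (adjusted p = 0.0447), as did 11.5% of all probe sets tested, and in no other setting.

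The type-A regulator RR5, which could not be placed on a chromosome, changed direction with wild type replicate 3. It read 949.1, 880.1 and 778.4 in DpDf and 992.3, 952.0 and 504.6 in wild type. Every DpDf array lay below wild type replicates 1 and 2 and above wild type replicate 3. Its log2 difference was therefore 0.15 ± 0.27 with all 6 arrays and -0.17 ± 0.10 without that array (SE, limma adjusted p = 0.775 and adjusted p = 0.376). Without it RR5 and RR7 had the same sign, with RR7 further from 0.

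The other type-A regulators were too dim for a fold to be given. RR4 read 170.2, 171.6 and 185.8 in DpDf and 207.0, 194.0 and 386.1 in wild type on 1 probe set. On the other it read 194.5, 183.3 and 173.5 in DpDf and 202.3, 200.2 and 336.2 in wild type. All DpDf arrays lay below all wild-type arrays on both, but only wild type replicate 3 exceeded the background bound. RR3 (abph1) read 73.46 to 79.22 on the DpDf arrays and on wild type replicates 1 and 2, and 190.1 on wild type replicate 3. RR6 read 159.4, 128.6 and 93.02 in DpDf, 132.3 and 128.6 in wild type replicates 1 and 2 and 340.0 in replicate 3. The signal of RR3, RR4 and RR6 in wild type replicate 3 thus stood 0.74 to 1.38 log2 units above that of its 2 companions. RR11 was dim on every array, at 69.57 to 89.64, with no separation of the groups.

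The type-B regulators all had small positive differences. RR9 read 815.7, 828.9 and 777.8 in DpDf and 694.0, 750.1 and 582.8 in wild type, with no overlap. It was 0.26 ± 0.14 higher over all 6 arrays and 0.16 ± 0.08 without wild type replicate 3 (SE, limma adjusted p = 0.562 and adjusted p = 0.279). By gene order RR9 lies just beyond the part of chromosome 5 taken as triplicated. Of its neighbours RPL19, the last gene inside that part, lay at 0.62 without wild type replicate 3, and 4CL, between RPL19 and RR9, at 0.10. The next 3 genes beyond RR9 lay at -0.07 to 0.06. The labels give the break by arm position, genetic map and contig, none of which was joined to this gene order, so whether RR9 has 2 or 3 copies in DpDf is not known here.

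RR8 read 593.6, 580.6 and 537.6 in DpDf and 508.5, 560.5 and 329.1 in wild type. The groups overlapped through wild type replicate 2, and the log2 difference was 0.33 ± 0.21 over all 6 arrays and 0.09 ± 0.08 without wild type replicate 3 (SE). RR10 read 649.6, 586.5 and 564.8 in DpDf and 536.9, 598.5 and 405.5 in wild type, also with overlap. Its difference was 0.24 ± 0.17 and 0.08 ± 0.09 in the same order (SE). For both, the limma adjusted p-values lay between 0.54 and 0.646 without wild type replicate 3 and were 0.564 and 0.568 with it.

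**Figure D3:**
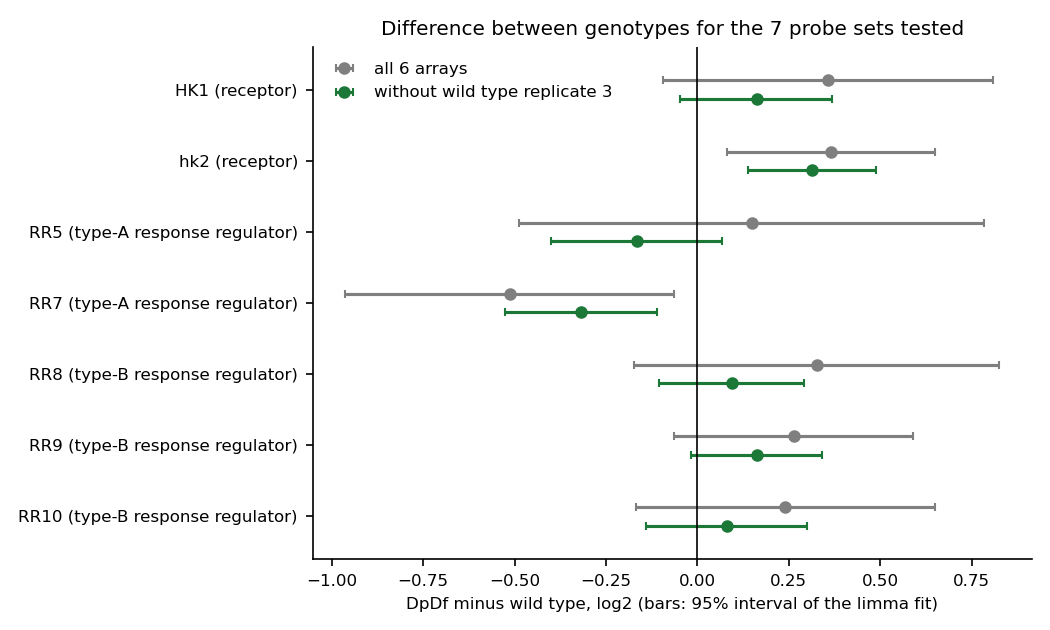
Log2 difference between DpDf and wild type with its 95% interval from limma for the 7 probe sets tested, with all 6 arrays in grey and without wild type replicate 3 in green. The interval of hk2 lies above 0 and that of RR7 below 0 in both settings, before any adjustment for the number of probe sets, and RR5 changes side.

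Over the 7 probe sets tested, 0 were called with all 6 arrays, against 0.0281% of all 10661 probe sets. Without wild type replicate 3, 0 were called, against 3.33%. At an unadjusted p under 0.05 the count was 2 in each setting (hk2 and RR7), against 9.76% of all probe sets over 6 arrays and 20.3% without wild type replicate 3. Groups did not overlap, with DpDf higher, for 2 of the 7 (hk2 and RR9) in each setting, against 23.2% and 25.4% of all probe sets, which is close to their share here. With DpDf lower they did not overlap for 1 of the 7 with all 6 arrays (RR7) and for 2 without wild type replicate 3 (RR5 and RR7), against 3.61% and 17.5%. The median difference of the 7 was 0.26 over all 6 arrays and 0.09 without wild type replicate 3, beside 0.18 and 0.02 for all probe sets tested.

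Set against each other within each array, receptors and response regulators gave a score that did not overlap between the genotypes. For each array the receptor value was the mean over HK1 and hk2 of the log2 level less that gene's mean over the 6 arrays, and the regulator value was the same over RR5, RR7, RR8, RR9 and RR10. Receptors minus regulators came to 0.11, 0.17 and 0.13 on DpDf arrays 1 to 3. On wild-type arrays 1 to 3 the score came to -0.13, -0.14 and -0.13. The DpDf mean was 0.13 ± 0.03 and the wild-type mean -0.13 ± 0.01 (SD, n = 3 each), with no overlap. The genotypes therefore differed by 0.27, whether or not wild type replicate 3 was used. With all 6 arrays, however, they differed by 0.14 when the median over genes replaced the mean, and by 0.64 with the dim members included. Of those, the RR3, RR4 and RR6 probe sets lay at -0.38 to -0.53 (DpDf minus wild type) with wild type replicate 3 and at -0.01 to -0.19 without it. As the members were chosen with earlier results known, no test was made of this score.

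On this score wild type replicate 3 lay with its group. Relative to wild type replicates 1 and 2 it was lower by nearly the same mean in receptors (-0.37) and in regulators (-0.37). The genes behind these means were not alike, at -0.587 for HK1 and -0.155 for hk2. Among the regulators they ran from -0.944 for RR5 to 0.584 for RR7. That wild type replicate 3 hardly moved the score thus rests on unlike deviations averaged over few genes. The score was not taken with single genes left out, and RR7 was the only regulator lower in DpDf with all 6 arrays. Against the type-B regulators only, without RR5 and RR7, the receptors overlapped between the genotypes with all 6 arrays. That difference lay at 0.02 to 0.08 in DpDf and -0.14 to 0.04 in wild type, with 0.04 on wild type replicate 3. The receptors alone were 0.36 higher in DpDf with all 6 arrays and 0.24 without that array. The regulators alone differed by 0.09 and -0.03 as a mean, or 0.24 and 0.08 as a median over genes, and the groups overlapped in both settings. The 3' over 5' signal split the genotypes as the score did, at 0.86 to 1.49 in DpDf and 0.38 to 0.73 in wild type, and so did the summed green leaf signal. Their part in the score was not tested.

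The regulators were also taken by type, a division applied after the values were seen. Type A (RR5 and RR7) minus type B (RR8, RR9 and RR10) was -0.22, -0.21 and -0.26 in DpDf and 0.26, -0.01 and 0.44 in wild type. Every DpDf array lay below every wild-type array, and the wild-type arrays spread far more than the DpDf arrays. The genotypes differed by -0.46, and by -0.35 once wild type replicate 3 was left out. Receptors minus type A differed by 0.54 and 0.48 in the same order, with no overlap, and receptors minus type B by 0.08 and 0.13, with overlap when all 6 arrays were used. Type A alone and type B alone each overlapped between the genotypes with all 6 arrays. The division rests on 2 and 3 genes, and RR5 had the sign of the type-B genes when wild type replicate 3 was used. With all 6 arrays RR5 overlapped between the genotypes and RR7 did not, and the type-A minus type-B difference was not taken without RR7.

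**Figure D4:**
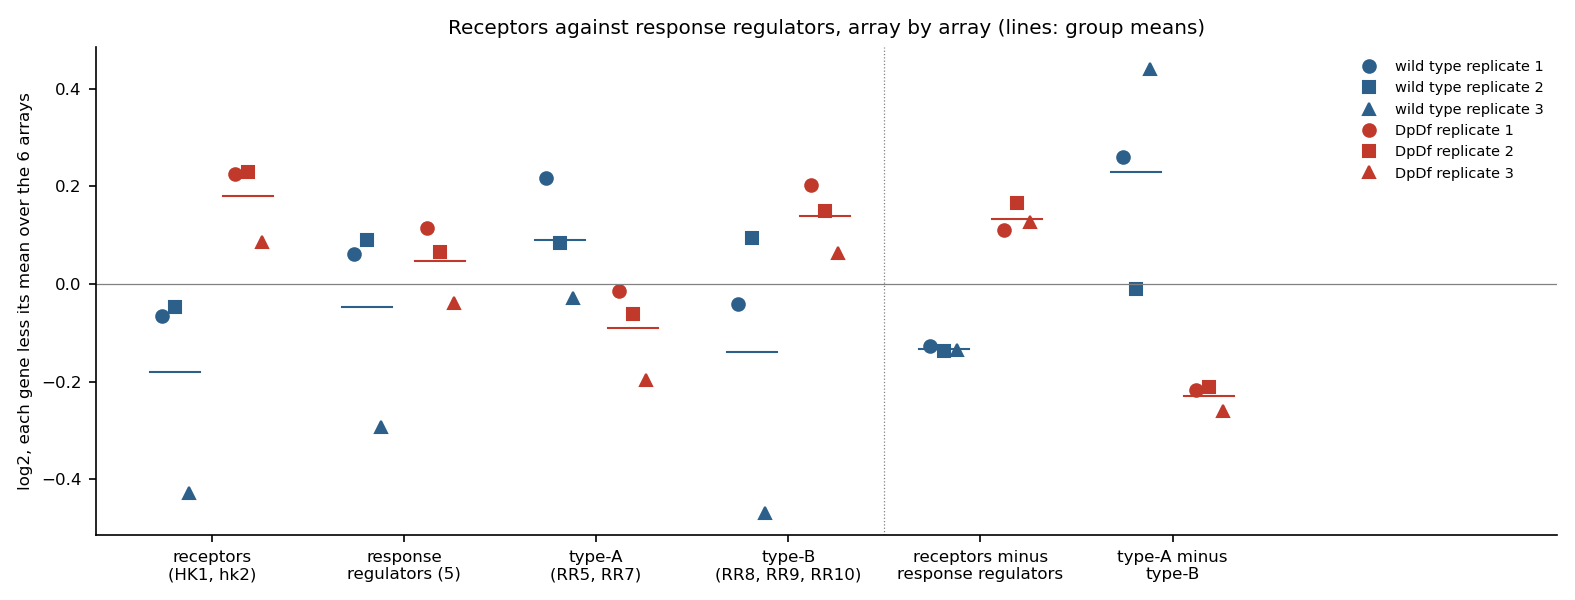
Mean log2 level of each class of genes on each array, each gene less its mean over the 6 arrays, and the differences between classes at the right, with group means as lines. Receptors minus response regulators lies between 0.11 and 0.17 in DpDf and near -0.13 on all 3 wild-type arrays, whereas receptors alone and regulators alone are lowest on wild type replicate 3.

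The phosphotransfer genes HP1, hp2 and HP3, which carry the phosphate from receptor to regulator, were all kept. In either setting 0 of 3 were called, against 0.0281% and 3.33% of all probe sets, so that no call among so few says little. Over all 6 arrays the differences were 0.14 for HP1, 0.26 for hp2 and 0.33 for HP3. Leaving out wild type replicate 3, they lay at 0.01, 0.15 and 0.06. Their limma adjusted p-values were 0.431 to 0.945 in that setting.

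Of the genes that make, release or break down cytokinin, 6 were on the array and 2 were kept, with 0 called in either setting beside the same shares of all probe sets (0.0281% and 3.33%). The beta-glucosidase gene glu1, whose product can free cytokinin from its glucoside, read 14155, 15579 and 12725 in DpDf and 12719, 11377 and 11025 in wild type. It lay at 0.27 over all 6 arrays and at 0.23 without wild type replicate 3 (limma adjusted p = 0.556 and adjusted p = 0.273). The related gene glu2 lay at 0.61 and 0.16, with wild type replicate 3 (245.6) far below the other arrays (537.0 to 733.3). The cytokinin oxidase genes cko1, cko2 and cko3, which degrade the hormone, and ciszog1, which encodes a cis-zeatin glucosyltransferase, were too dim to be tested. All of these but cko2 were brightest on wild type replicate 3, as at 293.3 against 152.3 to 161.6 for cko1.

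The ethylene receptor gene etr2, which serves another hormone, lay opposite in sign to the cytokinin receptors. It read 393.1, 413.1 and 367.6 in DpDf and 482.7, 455.5 and 772.5 in wild type, with no overlap. Its difference was -0.50 over all 6 arrays and -0.26 without wild type replicate 3 (limma adjusted p = 0.517 and adjusted p = 0.147). A dimmer etr2 probe set, below background on every array, had the same order of groups.

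Of meristem and cell cycle genes 5 and 12 probe sets were tested and 0 were called in either setting, again against 0.0281% and 3.33% of all probe sets. The homeobox gene kn1, which maintains the meristem and promotes cytokinin synthesis, lay at 0.07 ± 0.19 over all 6 arrays and 0.03 ± 0.19 without wild type replicate 3 (SE). The D-type cyclin gene cycD2 lay at 0.23 and 0.17 (limma adjusted p = 0.562 and adjusted p = 0.222), with DpDf at 4185 to 4281 above wild type at 3357 to 3815. The cyclin gene cyc3 lay at -0.06 and -0.29 (adjusted p = 0.88 and adjusted p = 0.11). Cell cycle probe sets as a whole had a median of 0.17 over all 6 arrays and -0.04 without wild type replicate 3, close to all probe sets tested.

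Genes whose levels most resembled those of hk2 and RR7 were sought among 977 kept probe sets with a gene name. Over the 6 arrays hk2 was most like cdpk1, a calcium-dependent protein kinase gene (Pearson r = 0.984), PER42 (r = 0.98) and arf1 (r = 0.974). Over the 5 arrays without wild type replicate 3 it was most like pdi4 (r = 0.995), psad1 (r = 0.992) and MTK-4 (r = 0.991). All of these except PER42 lie on the triplicated arm, which holds 60 of the 978 named and kept probe sets, whereas hk2 does not. RR7 was most like gst14 (r = 0.994), the ethylene receptor gene etr2 (r = 0.985) and K2 (r = 0.959) over the 6 arrays. Over the 5 arrays it was most like trxh1 (r = 0.998), LOC542657 (r = 0.998) and gpc4 (r = 0.995), none of them on the arm. The points of each correlation share the 2 genotypes and, over 6 arrays, wild type replicate 3, so these values are descriptions only.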

How the data were processed

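RNA of 6 pools was measured on Affymetrix maize arrays. The values the authors deposited are linear intensity, and the submitters' processing notes name GCOS 1.2 and GCRMA with neither role nor order. How the values were scaled and corrected for background is therefore unknown here. They were taken as log2(intensity + 1). After removal of 113 control probe sets, 10661 of 17621 probe sets (60.5%) were kept.

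The comparison of genotypes used lmFit and eBayes of limma 3.58.1 (R 4.3.3) with no block. On simulated data it recovered 4% of 1.5-fold and 48% of 2-fold changes with all 6 arrays. Without wild type replicate 3 it recovered 60% and 86%. Smaller changes were not simulated. The simulated noise was independent between probe sets and arrays, without the joint shift of wild type replicate 3, so these rates are only a rough guide. P-values were adjusted by Benjamini-Hochberg over every kept probe set, or over all 17621 in the fits without a filter, with a threshold of 0.05. Names came from the platform annotation, matched by gene identifier to RefSeq (Zm-B73-REFERENCE-NAM-5.0), used for names, chromosomes and gene order only. This matched 12 of the 13 members. Dim groups gave a bound against each array's 40th percentile. All members were named. Lists were matched by symbol, and 3 genes that only shared a name (ohp1, Ct2 and the PDK1 of chromosome 1) were set aside. For hk2 and RR7 the 3 most correlated named genes are given. Members and lists were chosen with earlier results of these data known.

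Per the labels, pools of the same number came from 1 planting of siblings, so numbers pair the pools. Their deviations from group means correlated at 0.08, -0.16 and 0.20. Alternatives were other scalings, pseudocount, no filter, array weights, the replicate block and leaving out each array.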

Additional observations from a re-analysis of the deposited data

How the results depend on the processing

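With all 6 arrays 3 probe sets of the whole array were called, 2 to 355 when single arrays were left out (355 without wild type replicate 3) and 1224 with array weights. Receptors minus response regulators (0.27) was 0.25 to 0.28 with single arrays left out, 0.33 with quantile normalization, 0.14 with the median over genes, 0.64 with all members and no filter, and 0.45 and 0.47 with hk3 added (6 and 5 arrays), a setting chosen after the data were seen; the last 3 values rest on signal below background. The direction was DpDf higher throughout these settings, none of which left out a single gene. The median over response regulators (0.24) was 0.056 with no filter. RR5 (0.15; up to 0.32, without wild type replicate 1) reversed, to -0.17 without wild type replicate 3 (also with no filter), -0.18 with median centring and -0.20 with quantile normalization in that setting, -0.18 with array weights and -0.089 with replicate 3 of each genotype dropped and the replicate block. Type-A minus type-B stayed between -0.58 and -0.35 with single arrays left out. Receptors alone stayed at 0.24 to 0.43, the regulators' median at 0.08 to 0.34. Array weights took hk2, hk3 and RR7 past the threshold. Leaving out wild type replicate 3 moved these differences by over 1.5 times: HK1 0.36 to 0.16, RR7 -0.51 to -0.32, RR8 0.33 to 0.09, RR9 0.26 to 0.16 and RR10 0.24 to 0.08. Quantile normalization of all 6 arrays gave 0.21 for hk2, 0.10 for RR9, 0.13 for RR10 and 0.011 for RR5. With the replicate block 3 probe sets were called and no member changed its call (hk2 0.37, RR7 -0.51). The causes were not tested. Dim signal limits hk3, RR3, RR4, RR6 and RR11.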
